A study of Gossypium hirsutum with 120 samples.

Results

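Vesicle trafficking and exocytosis genes of Upland cotton (Gossypium hirsutum, line TM-1) were examined in nectaries and in the tissue beside them. The set holds every table row whose protein description contains syntaxin, vesicle-associated membrane protein, exocyst complex component or coatomer subunit, which is 211 of 49663 rows. Rows of the same cotton gene were summed, which left 197 genes among 45810, and 193 of the 197 passed the filter on low values. The study compared the floral nectary on the inner face of the calyx and 3 extrafloral nectaries (bracteal, circumbracteal and foliar) with adjacent tissue free of nectary papillae, before, during and after nectar secretion. It asked whether models of nectar export through transporters and in vesicles that fuse with the plasma membrane apply to these nectaries, whose papillae are multicellular glandular hairs, and the genes described here belong to the vesicle route.

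All samples came from untreated plants of the same line, raised in growth chambers, and several nectaries were pooled into each RNA sample. Floral nectary and adjacent floral tissue were collected 24 hours before anthesis (pre-secretory, 2 and 3 samples), at anthesis (secretory, 3 each) and 24 hours after it (post-secretory, 3 each). Bracteal and circumbracteal nectaries and their adjacent tissues were collected at the match-head square (pre-secretory, 2 each and 3 each) and 19 to 24 days after anthesis (post-secretory, 3 each). Foliar nectary and adjacent leaf tissue were collected from leaves with a midvein of 5 to 6 cm (pre-secretory, 2 each), from leaves with a midvein of 12 to 15 cm (secretory, 1 each) and from mature leaves without visible nectar (post-secretory, 3 each). A second sequencing set, with the secretory bracteal and circumbracteal samples and further secretory foliar samples, was not analysed here. Replicates are called biological in the labels, and nothing there says that they came from separate plants, so p-values measure the spread between these samples.

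In a plant cell, cargo leaves the endoplasmic reticulum in COPII vesicles, passes the Golgi and the trans-Golgi network, and reaches the cell surface in secretory vesicles. The coatomer coats COPI vesicles, which carry material back through the Golgi and to the endoplasmic reticulum, while the exocyst, an octameric complex in Arabidopsis, tethers secretory vesicles to the plasma membrane. Fusion is carried out by SNARE proteins, in which a vesicle-associated membrane protein (VAMP) on one membrane zips up with syntaxins and their partners on the other. Different syntaxins mark different compartments, and KNOLLE (SYP111 in Arabidopsis) acts at the cell plate that divides plant cells.

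The 197 genes fell into 67 syntaxins, 28 VAMPs, 60 exocyst genes (56 tested) and 42 coatomer genes. The syntaxins were grouped by the number or name in their protein description into plasma membrane and cell plate (18), late endosome and vacuole (23), Golgi (5), trans-Golgi network (13) and endoplasmic reticulum (8). The VAMPs were grouped into VAMP711 to VAMP714 of the vacuole and Golgi (11), VAMP721 to VAMP726 of the secretory route (15) and VAMP727 of late endosomes (2). The 4 genes that were not tested are exocyst genes described as SEC3A-like, SEC8-like, SEC15A-like and EXO70B1-like, whose highest value in any sample was 9.72 to 12.3. Cotton is a tetraploid, so near-identical copies may have split each other's reads, and the library kit did not mark strand.

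Values are the deposited length-scaled values of an RNA sample, divided by an upper-quartile factor, and are called normalized values below. The total per sample ranged from 7489375 to 16203450, and the correlation between replicates across genes from 0.768 to 0.955 (44 pairs). The circumbracteal nectary varied most between replicates, with a median SD over genes of 0.81 (pre-secretory) and 0.713 (post-secretory) on the log2 scale and with 30089 to 37580 and 33355 to 40066 genes above 0, against 36425 to 44436 in the other groups. The nectary markers, 1 CRABS CLAW-like and 2 SWEET9-like genes, summed to 175 to 376 in the secretory floral nectary, against 2.69 to 9.68 in its adjacent tissue, and to 30.5 to 70.7 and 3.47 to 6.33 before secretion. In the post-secretory floral nectary they summed to 0 to 14.1, and 4.95 to 33.7 in the adjacent tissue. In every extrafloral sample 2 of the 3 were at 0, so the sum there rests on the remaining gene. This sum was apart in post-secretory circumbracteal samples (45.77 to 69.86 in the nectary, 4.861 to 17.16 beside it). It was also apart in post-secretory bracteal (12.12 to 41.42 and 3.671 to 9.145) and pre-secretory foliar samples (23.8 to 36.11 and 5.733 to 12.92). Samples overlapped in the pre-secretory bracteal, pre-secretory circumbracteal and post-secretory foliar groups. Floral nectary samples also held less of the 19 phloem markers, which summed to 401 to 529 in the pre-secretory nectary and 1949 to 7634 beside it, to 220.5 to 349 and 614 to 1628 at anthesis and to 252 to 310.2 and 1078 to 2347 after it. The 35 photosynthetic markers overlapped between the tissues at all 3 floral stages, and in pre-secretory foliar samples they summed to 33880 to 71540 in the nectary and 109800 to 186200 beside it. The 17 markers of dividing cells summed higher in the floral nectary without overlap, to 2701 to 3471 in the pre-secretory nectary and 1378 to 2034 beside it, to 2732 to 3474 and 1526 to 1634 at anthesis and to 1398 to 2458 and 1018 to 1333 after it. Averaged over all samples, a single cyclin gene made up most of the sum of this list, as given below. The part of these differences in the results below was not tested.

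Transcripts of the whole set were about as abundant in nectaries as beside them. Summed over all members, the ratio of nectary to adjacent tissue lay between 0.911 and 1.153 in the 9 comparisons at a single stage, and the samples overlapped in all 9. The VAMPs summed to 6657 ± 1499 in the secretory floral nectary and 6084 ± 2121 in its adjacent tissue (SD, n = 3 each), the syntaxins to 5112 ± 963 and 5199 ± 1125, the exocyst genes to 3069 ± 317 and 3143 ± 301, and the coatomer genes to 7646 ± 1094 and 5863 ± 977. On total-of-table scaling, which moved the median gene of this comparison by -0.495 (log2), the ratio over all members was 0.772, against 1.11 on the main scaling, and that of the coatomer genes 0.914, against 1.3. These sums rest on a few genes. The zeta-1-like coatomer gene LOC107960250 made up 18.9 to 53.7% of the coatomer sum, the VAMP721-like LOC107961290 19.7 to 50.8% of the VAMP sum, and the syntaxin-22-like LOC107942028 5.14 to 25.3% of the syntaxin sum.

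At a single stage, as the plot of family sums shows, the exocyst sum was lower in the nectary without overlap of samples in 4 of 9 comparisons. It summed to 2756 ± 108 in the pre-secretory floral nectary and 3035 ± 72.8 beside it (SD, n = 2 and 3), to 3066 ± 94.8 and 3561 ± 198 in post-secretory bracteal samples (n = 3 each), to 2974 ± 121.1 and 3460 ± 96.2 in post-secretory circumbracteal samples (n = 3 each) and to 2573 ± 45.7 and 2914 ± 160.3 in pre-secretory foliar samples (n = 2 each). These are ratios of 0.86 to 0.908. On total-of-table scaling the post-secretory bracteal ratio turned to 1.05, against 0.861 on the main scaling, and the other 3 stayed below 1. The VAMPs were higher without overlap once, at 12080 ± 579 in the post-secretory circumbracteal nectary and 8914 ± 2135 beside it.

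**Figure D1:**
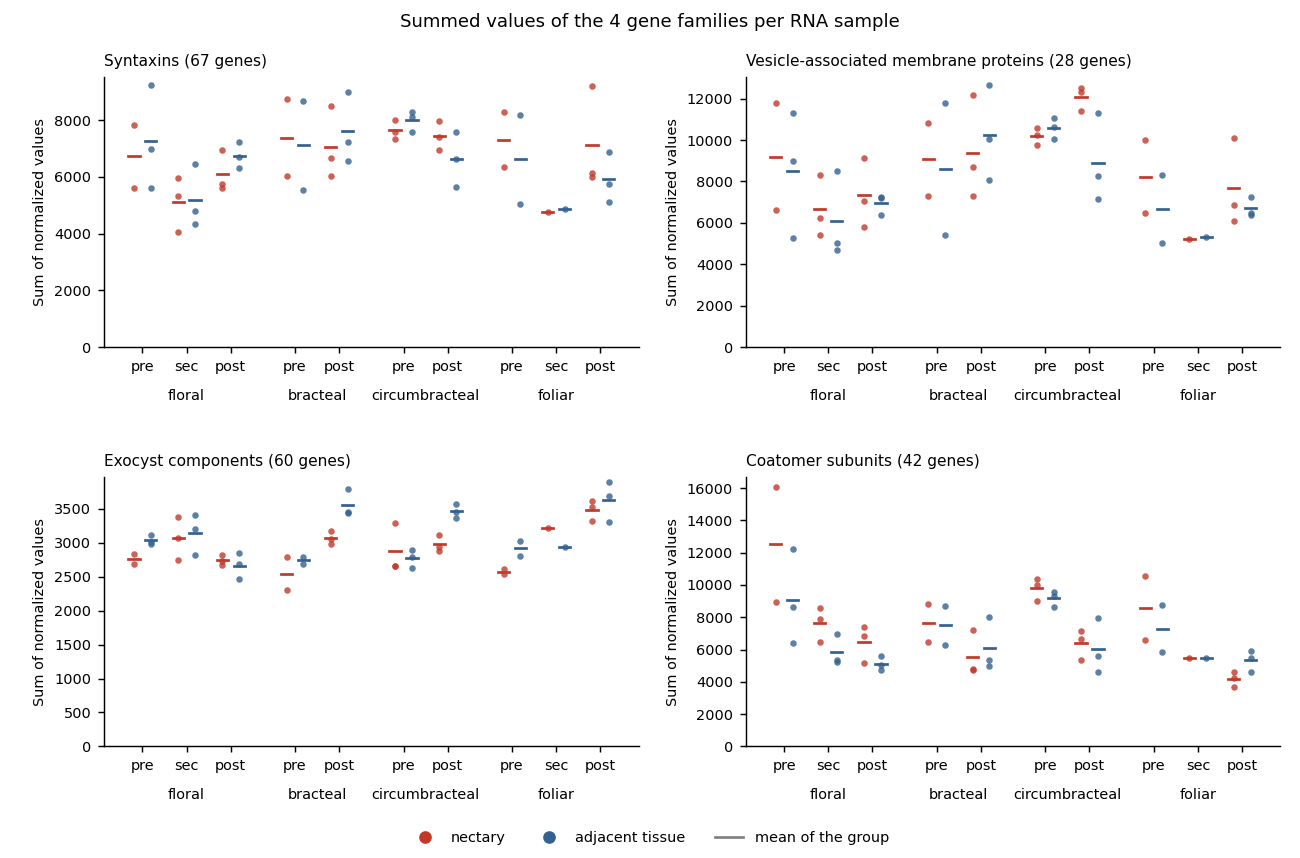
Summed normalized values of the syntaxins, VAMPs, exocyst and coatomer genes (vertical axes, from 0) by nectary type and stage (horizontal axis). Points are RNA samples, red for nectary and blue for adjacent tissue, and bars are group means. Red and blue points overlap in most groups, and the mean coatomer sums of the floral nectary and of its adjacent tissue are highest before secretion.

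Member by member, few differed between a nectary and its adjacent tissue. A gene was called where limma gave an adjusted p under 0.05 and a difference of at least 1.5-fold on the log2(value + 1) scale, which understates the change of low genes. Over the 9 comparisons 29 of 193 members were called, with 34 calls, 12 higher in the nectary and 22 lower, and 4 members were called more than once. In each of the 9, in the fit without pairing of samples, the share of members called was below that of all genes. The median log2 difference of the members was -0.18 to 0.13, against -0.24 to 0.09 over all genes. The plot of the share called by comparison shows this, and it shows 2 stage steps, of bracteal adjacent tissue and of the foliar nectary, in which the members reached or passed the share of all genes. In bulk tissue, fewer cells of a type and less RNA per cell cannot be told apart.

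**Figure D2:**
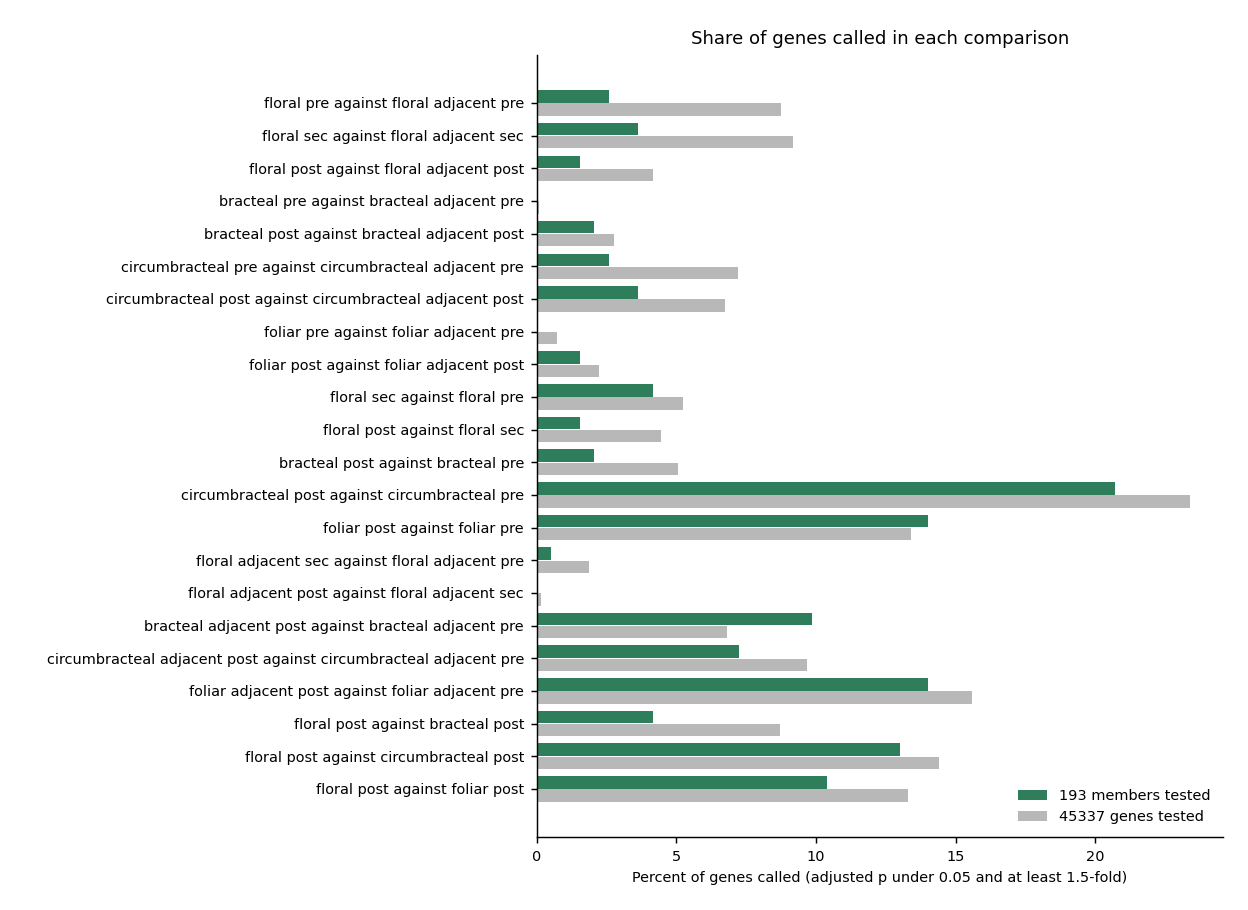
Share of genes called (horizontal axis, percent) in each comparison (rows, first group against second), for the 193 members tested (green) and all 45337 genes tested (grey). The green bars are shorter than the grey ones in every comparison of a nectary with its adjacent tissue and longest in the circumbracteal nectary step, followed by the foliar steps of nectary and adjacent tissue, which are equal.

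In the pre-secretory floral nectary few members were called. Of 193 members 4 were higher and 1 lower than in the adjacent tissue, with of all genes 4.03% higher and 4.74% lower, 8.76% in all, and 3 of the 4 were coatomer genes (epsilon 2, zeta 1), out of 42 coatomer genes tested. All 3 coatomer calls ended without nectary replicate 1. The epsilon-1 subunit gene XP_016730199.1, part of the outer COPI cage, had 1437 and 664 in the nectary, against 555, 473 and 281 in the adjacent tissue (log2 difference 1.22, SE 0.39, adjusted p = 0.0421). A second epsilon-1 gene, LOC107906332, had 806 and 481, against 339, 263 and 225 (log2 difference 1.19, SE 0.35, adjusted p = 0.0246). For both, the nectary samples lay above every adjacent sample and replicate 1 was well above replicate 2. The call of XP_016730199.1 ended without nectary replicate 1 or adjacent tissue replicate 2 or 3 (adjusted p 0.067 to 0.681) and on total-of-table scaling, on median-of-ratios scaling, in a fit of the compared groups alone and from run 2 alone (adjusted p 0.0519 to 0.185). That of LOC107906332 ended without nectary replicate 1 or adjacent tissue replicate 2 or 3 (adjusted p 0.0692 to 0.453) and on total-of-table scaling and in a fit of the compared groups alone (adjusted p 0.0738 to 0.117).

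The zeta-2-like coatomer gene LOC107900686, a subunit of the inner COPI layer, was the member with the largest rise in both floral comparisons in which it was called. It had 269 and 106 in the pre-secretory nectary, against 24.4, 9.31 and 3.47 beside it (log2 difference 4.01, SE 1.12, adjusted p = 0.0176), and 101.2, 181 and 97.7 in the post-secretory nectary, against 2.97, 27.0 and 2.89 beside it (log2 difference 4.02, SE 1, adjusted p = 0.0122). At anthesis it had 95.9, 172 and 47.5 in the nectary and 49.2, 20.6 and 45.7 beside it, where the samples overlapped, and it was not called (adjusted p = 0.543). Nectary and adjacent samples were thus apart before and after anthesis but not at anthesis. The pre-secretory call ended without nectary replicate 1 or adjacent tissue replicate 3 (adjusted p 0.0871 to 0.27), and the post-secretory call ended without nectary replicate 2 or adjacent tissue replicate 1 or 3 (adjusted p 0.0745 to 0.0936). Where 1 of 2 pre-secretory nectary samples was left out, the other was taken to vary like the remaining groups.

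The member that fell in the pre-secretory floral nectary was LOC107954084, described as EXO70A1-like but with EXO70H7 as its best Arabidopsis match. EXO70 proteins are the exocyst subunits that bind the target membrane, and plants hold many of them. It had 27.3 and 38.2 in the pre-secretory nectary, against 135, 128 and 80.6 beside it (log2 difference -1.76, SE 0.499, adjusted p = 0.0194), and 86.8, 40.3 and 38.4 in the secretory nectary, against 255, 255 and 115 beside it (log2 difference -1.91, SE 0.447, adjusted p = 0.00374). At both stages every nectary sample was below every adjacent one. The pre-secretory call ended without nectary replicate 1 or 2 or adjacent tissue replicate 1 or 2 (adjusted p 0.0558 to 0.249), while the secretory call was kept under every alternative tried. The remaining call was a rise of the EXO70A2-matched LOC107889438, at values of 23.2 and 11.4 in the nectary, against 2.71, 0.931 and 0, a call lost without nectary replicate 1 or 2 or adjacent tissue replicate 2 or 3 (adjusted p 0.0666 to 0.305) and with 0.5 added in place of 1 and in a fit of the compared groups alone (adjusted p 0.0526 to 0.0808). Over all members, the number called was 1 without replicate 1 of the nectary or replicate 2 of the adjacent tissue, 2 without replicate 3 of the adjacent tissue and 3 without replicate 2 of the nectary, and 3 higher and 3 lower on median-of-ratios scaling or 2 and 2 on total-of-table scaling.

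At anthesis, when the floral nectary secretes, 2 members were higher and 5 lower than in the adjacent tissue, with of all genes 3.29% higher and 5.89% lower, 9.18% in all. The lower ones were a VAMP711 gene, a VAMP724-like gene and 3 EXO70 genes (LOC107954084, LOC107927084 and the barely detected LOC107898821), and the higher ones a VAMP721 gene and an EXO70B1-like gene. With the replicate number as a block, which pairs these samples, 7 were higher and 7 lower, and on total-of-table scaling 0 were higher and 13 lower. The shares of all genes under these 2 settings are not given here, so these counts do not compare the members with other genes. The number called was 3 without replicate 1 or 2 of the nectary or replicate 2 of the adjacent tissue and 4 without replicate 1 of the adjacent tissue.

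XP_016731465.1, described as VAMP721, a vesicle SNARE of the secretory route, had 473, 417 and 369 in the secretory nectary, against 177, 150.2 and 115 in the adjacent tissue (log2 difference 1.52, SE 0.475, adjusted p = 0.0355). The samples of the nectary all lay above the adjacent ones, but the call ended without nectary replicate 1 or 2 or 3 or adjacent tissue replicate 1 or 2 or 3 (adjusted p 0.0522 to 0.132) and on total-of-table scaling and from run 1 alone (adjusted p 0.0792 to 0.307). LOC107913419, described as EXO70B1-like and matched to EXO70F1, had 653, 449.8 and 443, against 277, 239 and 245 (log2 difference 1.00, SE 0.267, adjusted p = 0.0119). Its 3 nectary samples were again above all adjacent ones. Its call ended without nectary replicate 1 or adjacent tissue replicate 2 (adjusted p 0.0561 to 0.0927) and on total-of-table scaling and in a fit of the compared groups alone (adjusted p 0.0609 to 0.486).

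Among the lower members, the vacuolar SNARE gene LOC107958571 (VAMP711, matched to VAMP713) had 77.8, 116 and 200.1 in the secretory nectary, against 252, 229.5 and 458 (log2 difference -1.28, SE 0.347, adjusted p = 0.0129). The EXO70B1 gene LOC107927084, whose Arabidopsis counterpart acts in autophagy-linked transport and immunity, had 72.4, 39.4 and 57.7, against 118, 113 and 110.3 (log2 difference -1.04, SE 0.286, adjusted p = 0.0143). Neither overlapped between the tissues. The call of LOC107958571 ended without nectary replicate 1 or 2 or adjacent tissue replicate 3 (adjusted p 0.0529 to 0.126) and in a fit of the compared groups alone (adjusted p = 0.101), and that of LOC107927084 ended without nectary replicate 2 or adjacent tissue replicate 1 or 2 (adjusted p 0.0504 to 0.142) and in a fit of the compared groups alone (adjusted p = 0.0795).

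The VAMP724-like gene LOC107935114, chosen after its values were seen, was nearly absent from the floral nectary at anthesis alone among its 3 stages. It had 28.3 and 13.4 in the pre-secretory, 0.904, 0 and 0 in the secretory and 15.0, 23.4 and 30.5 in the post-secretory nectary, and 81.4, 33.5 and 26.0, then 8.06, 13.2 and 23.3, then 9.91, 23.1 and 23.1 in the adjacent tissue at these stages. The secretory nectary lay below all other floral samples. It was called against the adjacent tissue at anthesis (log2 difference -3.56, SE 0.574, adjusted p = 4.37e-05), against the stage before (log2 difference -4.05, SE 0.641, adjusted p = 6.21e-05) and, higher, in the stage after (log2 difference 4.22, SE 0.574, adjusted p = 2.04e-05), comparisons that share the 3 secretory nectary samples. These calls were kept with every replicate left out. They ended with 10 added in place of 1 for the first (adjusted p = 0.0584) and in a fit of the compared groups alone for the others (adjusted p = 0.128 and 0.0935). The change from anthesis to the day after differed from that of the adjacent tissue by 3.88 (log2) with an adjusted p of 0.0752. In bracteal and circumbracteal nectaries before secretion the gene had 124 and 206 and 79.5, 116 and 109.

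One day after anthesis 2 members were higher in the floral nectary and 1 lower, with of all genes 1.95% higher and 2.23% lower, 4.18% in all. Beside the zeta-2-like coatomer gene, the VAMP711-like LOC107962587 had 12.2, 47.8 and 29.4 in the post-secretory nectary, against 5.94, 1.93 and 0 beside it (log2 difference 3.30, SE 0.893, adjusted p = 0.0226). The nectary samples were all higher, at low values. The lower member was the EXO70B1-like LOC107898821, with 0, 0.937 and 0, against 10.9, 18.3 and 8.67 (log2 difference -3.39, SE 0.7, adjusted p = 0.00197), a call lost in a fit of the compared groups alone (adjusted p = 0.0578). The call ended without nectary replicate 2 or 3 or adjacent tissue replicate 2 or 3 (adjusted p 0.0634 to 0.188) and from run 1 alone (adjusted p = 0.0874). The number called was 1 without replicate 2 of the nectary or replicate 3 of the adjacent tissue.

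Among the extrafloral nectaries, the circumbracteal one had the most calls against its adjacent tissue. In limma no member was called in the pre-secretory bracteal nectary (of all genes 0.0463% higher and 0.0287% lower, 0.075% in all) or the pre-secretory foliar nectary (of all genes 0.624% higher and 0.119% lower, 0.743% in all). At an unadjusted p under 0.05 were 6 members in the bracteal and 5 in the foliar nectary. The share of all genes at that level was not computed. In the post-secretory bracteal nectary 2 were higher and 2 lower, with of all genes 1.4% higher and 1.36% lower, 2.76% in all. The 2 lower ones were the EXO70H7-matched pair, LOC107954084 with 54.3, 115 and 56.8 in the nectary, against 127, 329.6 and 246 (log2 difference -1.60, SE 0.447, adjusted p = 0.0382), and LOC107942938 with 63.6, 101 and 57.8, against 196, 335 and 208 (log2 difference -1.72, SE 0.474, adjusted p = 0.0359). Neither overlapped. The call of LOC107954084 ended without nectary replicate 1 or 3 or adjacent tissue replicate 2 or 3 (adjusted p 0.127 to 0.195) and on total-of-table scaling, in a fit of the compared groups alone and from run 2 alone (adjusted p 0.0516 to 0.256), and that of LOC107942938 ended without nectary replicate 1 or 3 or adjacent tissue replicate 1 or 2 or 3 (adjusted p 0.0573 to 0.16) and on total-of-table scaling and from run 2 alone (adjusted p 0.0561 to 0.224). The 2 higher ones, the SEC8-like XP_016722471.1 of the exocyst and the syntaxin-22-like XP_016695128.1, were at 0 in every adjacent sample and averaged 8.21 and 16.6 in the nectary. On total-of-table scaling 2 were higher and 0 lower, and the number called was 1 without replicate 3 of the nectary or replicate 2 or 3 of the adjacent tissue and 2 without replicate 1 or 2 of the nectary.

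In the circumbracteal nectary all calls were lower, and there were 5 before secretion (of all genes 1.22% higher and 5.97% lower, 7.19% in all) and 7 after it (of all genes 1.72% higher and 5.02% lower, 6.75% in all). The photosynthetic markers were lower there too, summing to 7242 to 13530 in the pre-secretory nectary and 17400 to 34320 beside it, and to 7281 to 11350 and 11640 to 34490 after secretion. The phloem markers summed to 2514 to 3484 in the pre-secretory nectary and 3589 to 6480 beside it. The sum of the dividing-cell markers, which rests mostly on a single cyclin gene, was higher, at 2232 to 3185 and 1262 to 2122. The part of these marker differences in the calls was not tested. Before secretion the called members were 3 syntaxins and 2 coatomer genes, and 3 of the 5 (the alpha-1-like LOC107945015, the syntaxin-22-like XP_016695130.1 and the syntaxin-81-like LOC107951555) averaged 0, 0.445 and 22.6 in the nectary, against 6.68, 13.3 and 56.2 beside it. The Golgi syntaxin-32-like LOC107907310 had 25.7, 21.3 and 17.9 in the nectary, against 58.9, 118 and 62.7 (log2 difference -1.77, SE 0.391, adjusted p = 0.00387), and the beta'-2-like coatomer gene LOC107891694 had 64.9, 28.01 and 16.1, against 72.6, 97.2 and 127 (log2 difference -1.61, SE 0.359, adjusted p = 0.0043). In both genes every nectary sample was below every adjacent one. The call of LOC107907310 ended in a fit of the compared groups alone (adjusted p = 0.42), and that of LOC107891694 without nectary replicate 3 (adjusted p = 0.0675) and in a fit of the compared groups alone (adjusted p = 0.462). The number called was 3 without replicate 3 of the nectary or replicate 2 of the adjacent tissue and 14 without replicate 1 or 2 of the nectary.

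After secretion the 7 lower members were 2 plasma membrane syntaxins, a VAMP726 gene, 2 EXO84B-like exocyst genes (LOC107958500 and LOC107930374) and 2 coatomer genes (the alpha-1-like LOC107898574 and the beta'-2-like LOC107913937). The VAMP726 gene LOC107914847 had 4.33, 0 and 17.7 in the post-secretory circumbracteal nectary, against 50.4, 62.2 and 45.0 (log2 difference -3.52, SE 0.651, adjusted p = 0.000664). The syntaxin-121-like LOC107899409, whose Arabidopsis counterpart works in secretion at the plasma membrane and in defence against fungi, had 4.33, 7.76 and 12.5, against 53.6, 116 and 85.8 (log2 difference -3.26, SE 0.76, adjusted p = 0.00653). A second one, LOC107891194, had 17.3, 4.66 and 40.6, against 79.9, 105 and 163 (log2 difference -2.78, SE 0.753, adjusted p = 0.0193). None of the 3 overlapped between tissues. In a fit of the compared groups alone none of them was called (adjusted p 0.179, 0.0598 and 0.134), and LOC107891194 was also lost without nectary replicate 2 (adjusted p = 0.17) or adjacent-tissue replicate 2 (0.0545) or 3 (0.0978). The number called was 4 without replicate 2 or 3 of the adjacent tissue and 15 without replicate 3 of the nectary.

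In the post-secretory foliar nectary 2 members were higher and 1 lower, with of all genes 1.3% higher and 0.922% lower, 2.23% in all. The beta'-2-like coatomer gene LOC107897246 had 32.1, 64.9 and 29.1 in the nectary, against 251, 376 and 305 beside it, without overlap (log2 difference -2.93, SE 0.771, adjusted p = 0.0286). Its call ended without nectary replicate 1 or 3 or adjacent tissue replicate 1 or 2 or 3 (adjusted p 0.0641 to 0.15) and with 0.5 added in place of 1 (adjusted p = 0.0672). An EXO70B1-like gene, LOC107888843, matched to EXO70C2 and chosen after its values were seen, had foliar nectary samples above the adjacent ones at every stage. It had 34.4 and 48.5 in the pre-secretory nectary and 4.31 and 11.5 beside it (adjusted p = 0.565), 106 and 1.76 in the single secretory samples, and 16.9, 38.3 and 21.2 in the post-secretory nectary, against 0, 0.881 and 1.86 (log2 difference 3.83, SE 0.866, adjusted p = 0.00707). The post-secretory call ended without nectary replicate 2 or adjacent tissue replicate 1 (adjusted p 0.0545 to 0.0612). The other higher member was the SEC8-like XP_016722471.1, with 7.61, 7.49 and 12.3, against 0, 0 and 0.929. The number called was 0 without replicate 1 of the adjacent tissue and 1 without replicate 3 of the nectary or replicate 2 of the adjacent tissue.

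For the secretory foliar stage 1 nectary and 1 adjacent sample were analysed, and so there was no replicate check. The photosynthetic markers summed to 62860 in the nectary sample and 232900 in the adjacent one, and the phloem markers to 762 and 2700. All members summed to 18670 in the nectary sample and 18610 in the adjacent one. Of 102 members with a mean of at least 50 over both samples, 6 were at least 1.5-fold higher in the nectary and 4 at least 1.5-fold lower, where 31.4% of 20704 genes at that level differed so far. The higher ones included the EXO84C-like exocyst gene LOC107961856 (136 in the nectary, 67.9 beside it), the syntaxin-71-like LOC107922721 (205 and 95.2) and the trans-Golgi syntaxin-61-like LOC107941730 (145 and 86.4). The lower ones were the alpha-1-like LOC107963778 (56.1 and 99.6), the zeta-1-like LOC107891739 (86.7 and 135), the syntaxin-71-like LOC107899658 (104 and 178) and the syntaxin-121-like LOC107891194 (29.7 and 70.5).

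**Figure D3:**
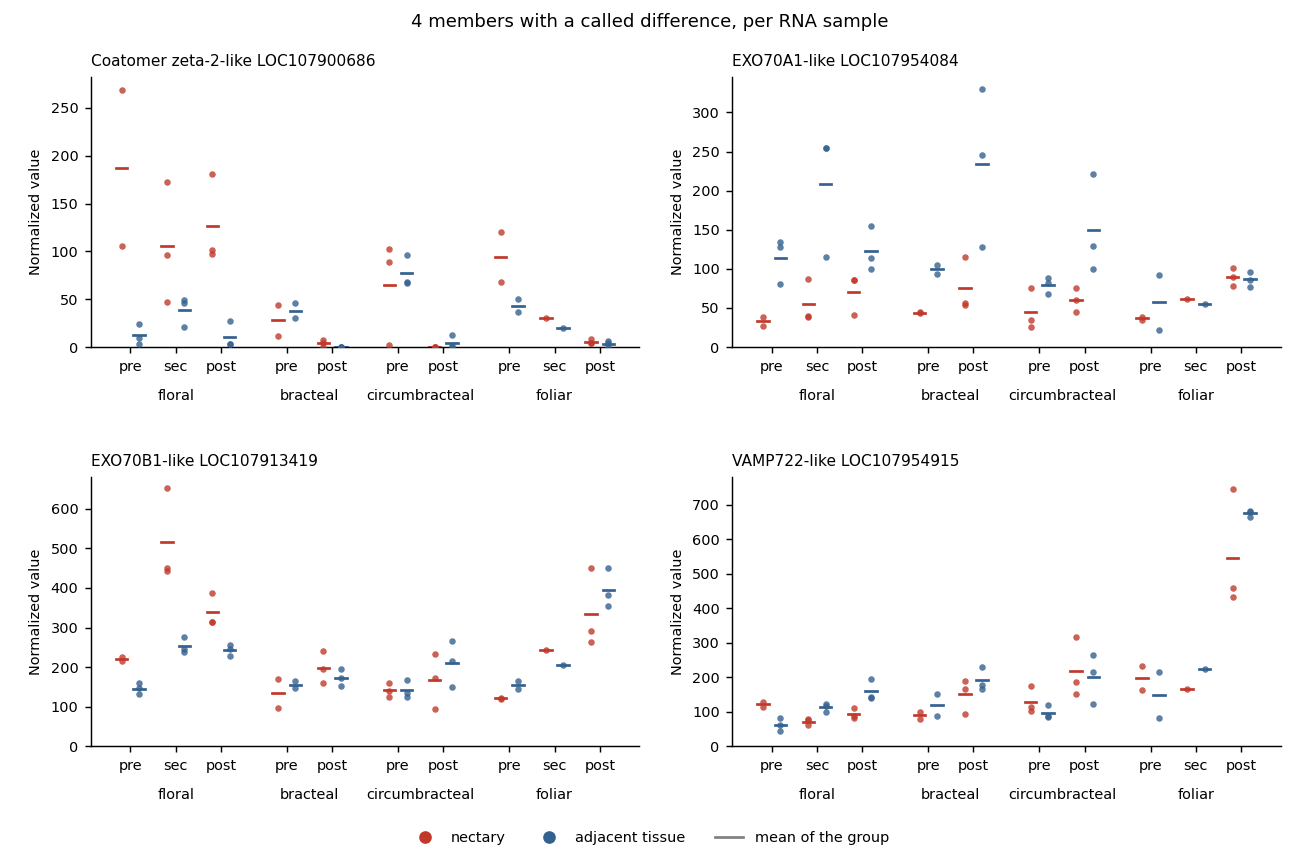
Normalized values (vertical axes, from 0) of 4 members by nectary type and stage (horizontal axes): zeta-2-like LOC107900686, EXO70H7-matched LOC107954084, EXO70F1-matched LOC107913419 and VAMP722-like LOC107954915. Points are RNA samples, red for nectary and blue for adjacent tissue, and bars are group means. LOC107900686 is high in floral nectary groups and in most circumbracteal and foliar nectary samples before secretion. LOC107954084 is lower in the nectary at 2 floral stages, LOC107913419 is highest in the floral nectary at anthesis and LOC107954915 in foliar samples after secretion.

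Over floral development the members moved little, and mostly down at the onset of secretion. From the pre-secretory to the secretory stage 3 members rose and 5 fell in the nectary (of all genes 2.69% higher and 2.56% lower, 5.25% in all), and the median log2 difference of the members was -0.34, against -0.01 over all genes. In the adjacent tissue this median was -0.145, against 0.082 over all genes. Summed over all members, the ratio of secretory to pre-secretory values was 0.721 in the nectary and 0.727 beside it. Of the VAMPs 0 rose and 3 fell, all of the VAMP721 to VAMP726 group. LOC107958423, described as VAMP721-like and VAMP722-like, had 108, 187 and 298 in the secretory nectary, against 1413 and 489 in the pre-secretory one (log2 difference -2.19, SE 0.6, adjusted p = 0.023), and the VAMP721-like LOC107906000 had 50.6, 95.6 and 174, against 652 and 255 (log2 difference -2.10, SE 0.579, adjusted p = 0.0239). No sample overlapped, but the pre-secretory replicates were far apart. The calls ended without pre-secretory nectary replicate 1 or secretory nectary replicate 1 (adjusted p 0.136 to 0.597) and in a fit of the compared groups alone (adjusted p = 0.1) for LOC107958423, and without pre-secretory nectary replicate 1 or secretory nectary replicate 1 or 2 (adjusted p 0.0532 to 0.567) and in a fit of the compared groups alone (adjusted p = 0.125) for LOC107906000. The other members that fell were the syntaxin-51-like LOC107922298 of the endosomes (log2 difference -1.22, SE 0.367, adjusted p = 0.0417) and the beta-1-like coatomer gene LOC107906781 (log2 difference -0.95, SE 0.27, adjusted p = 0.0299). Their calls ended without pre-secretory nectary replicate 1 or 2 or secretory nectary replicate 1 or 2 or 3 (adjusted p 0.0624 to 0.38) and on total-of-table scaling, in a fit of the compared groups alone, from run 1 alone and from run 2 alone (adjusted p 0.0574 to 0.174) for the syntaxin, and without pre-secretory nectary replicate 1 or secretory nectary replicate 1 or 3 (adjusted p 0.104 to 0.646) and on total-of-table scaling, in a fit of the compared groups alone and from run 1 alone (adjusted p 0.0694 to 0.321) for the coatomer gene.

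The 3 members that rose were a plasma membrane syntaxin and 2 EXO70 genes. The EXO70F1-matched LOC107913419 had 653, 449.8 and 443 in the secretory nectary, against 225 and 217 before (log2 difference 1.20, SE 0.299, adjusted p = 0.0108), without overlap. Its call ended without pre-secretory nectary replicate 1 or 2 or secretory nectary replicate 1 (adjusted p 0.0808 to 0.115) and on total-of-table scaling and in a fit of the compared groups alone (adjusted p 0.102 to 0.174). The syntaxin-121-like LOC107889449 had 44.3, 138 and 84.8, against 14.1 and 18.1 (log2 difference 2.26, SE 0.517, adjusted p = 0.00493). Adjacent tissue showed the same rise, with 65.3, 75.1 and 65.5 at anthesis, against 16.3, 16.8 and 15.6 before (log2 difference 2.01, SE 0.463, adjusted p = 0.0108), and this was its only called member (of all genes 1.24% higher and 0.629% lower, 1.87% in all). The nectary call ended without pre-secretory nectary replicate 1 (adjusted p = 0.122) and in a fit of the compared groups alone (adjusted p = 0.086), and the adjacent call without secretory adjacent tissue replicate 1 (adjusted p = 0.0511). The EXO70H4-matched LOC107899271 had 28.04, 59.0 and 4.52 in the secretory nectary and was listed at 0 in both pre-secretory samples (adjusted p = 0.00473). The number of members called in the nectary was 1 without replicate 1 of the pre-secretory nectary and 3 without replicate 1 of the secretory nectary, and in the adjacent tissue 0 without replicate 1 of the secretory adjacent tissue and 5 without replicate 3 of the pre-secretory adjacent tissue.

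After anthesis 2 members rose and 1 fell in the floral nectary (of all genes 2.8% higher and 1.64% lower, 4.44% in all). The VAMP724-like gene rose, as given above, and so did the KNOLLE-like LOC107893818, with 10.3, 2.81 and 15.8 where the secretory samples were at 0 (adjusted p = 0.0159), a call lost without secretory nectary replicate 1 or 2 or post-secretory nectary replicate 1 or 3 (adjusted p 0.056 to 0.126) and with 10 added in place of 1, in a fit of the compared groups alone and from run 2 alone (adjusted p 0.0883 to 0.252). By number, 6 rose and 0 fell on total-of-table scaling. The member that fell was the alpha-1-like coatomer gene XP_016714679.1, of the COPI cage, with 23.4, 33.7 and 24.2 in the post-secretory nectary, against 59.7, 71.2 and 66.7 at anthesis (log2 difference -1.27, SE 0.324, adjusted p = 0.0165). Its samples did not overlap, and its call ended without secretory nectary replicate 2 or post-secretory nectary replicate 1 or 3 (adjusted p 0.0882 to 0.117) and on total-of-table scaling, in a fit of the compared groups alone and from run 1 alone (adjusted p 0.0544 to 0.148). In the adjacent tissue limma called no member (of all genes 0.0154% higher and 0.154% lower, 0.17% in all). At an unadjusted p under 0.05 were 14 members, a level at which the share of all genes was not computed. The number called in the nectary was 1 without replicate 2 of the secretory nectary or replicate 1 or 3 of the post-secretory nectary, 8 without replicate 2 of the post-secretory nectary and 10 without replicate 3 of the secretory nectary.

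Summed coatomer values of the floral nectary were 12510 ± 5067 before (n = 2), 7646 ± 1094 during (n = 3) and 6469 ± 1161 after secretion (SD, n = 3). The pre-secretory replicates, both above all secretory ones, were far apart, and much of that gap was in the zeta-1-like LOC107960250, which had 7429 and 2955 before, 1770, 2379 and 3810 during and 1234, 2731 and 2753 after secretion, and 6559, 3911 and 1692 in the pre-secretory adjacent tissue. It was not called at either floral step (adjusted p = 0.446 and 0.885). Mean coatomer sums of the adjacent floral tissue fell too, with overlapping samples at each step. They were 9078 ± 2937 before, 5863 ± 977 during and 5125 ± 447 after secretion (SD, n = 3 each). The ratio of secretory to pre-secretory coatomer sums was 0.611 in the nectary and 0.646 beside it.

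Cell plate syntaxins had the largest stage changes of the members called. Genes described as KNOLLE-like, 4 in all and each matched to SYP111, were present in young extrafloral nectaries and nearly absent from old ones, in the nectary and beside it alike. In Arabidopsis this syntaxin is made in dividing cells and fuses Golgi-derived vesicles into the cell plate, with SYP71, NPSN11 and VAMP721 or VAMP722 as partners.

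LOC107918332 had 4.23, 0 and 0 in the post-secretory foliar nectary, against 378 and 192 in the pre-secretory one (log2 difference -7.29, SE 1.04, adjusted p = 5.88e-06). It had 0, 9.09 and 0 in the post-secretory bracteal nectary, against 81.7 and 292 (log2 difference -6.17, SE 1.04, adjusted p = 0.000166), and 0, 0 and 1.04 in the circumbracteal nectary, against 166, 108 and 219 (log2 difference -6.97, SE 0.928, adjusted p = 6.68e-07). Old and young samples were far apart in all 3 nectaries. In the adjacent tissues it had 0, 3.53 and 4.64, against 332 and 221 in leaves (log2 difference -6.53, SE 1.04, adjusted p = 1.67e-05), and 1.09, 0 and 0, against 82.4, 23.3 and 167 beside the circumbracteal nectary (log2 difference -5.77, SE 0.928, adjusted p = 5.08e-05). Beside the bracteal nectary it was listed at 0 in all 3 post-secretory samples and had 35.9 and 93.6 in the pre-secretory ones (adjusted p = 0.000305). All 6 calls of this gene were kept under every alternative tried.

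Of the other copies, LOC107893170 had 2.54, 0 and 3.53 in the post-secretory foliar nectary, against 288 and 166 (log2 difference -6.44, SE 1.09, adjusted p = 6.85e-05), 1.16, 6.06 and 0 in the bracteal one, against 58.5 and 268 (log2 difference -5.67, SE 1.09, adjusted p = 0.000879), and 0 in all 3 post-secretory circumbracteal samples, where the pre-secretory ones had 168, 60.01 and 183 (adjusted p = 1.7e-06). LOC107937001 had 1.69, 0 and 7.05 in the foliar nectary, against 410.1 and 213 (log2 difference -6.73, SE 1.29, adjusted p = 0.00035), 10.4, 8.08 and 0.963 in the bracteal one, against 91.0 and 404 (log2 difference -5.04, SE 1.29, adjusted p = 0.0147), and 0, 97.8 and 0 in the circumbracteal one, against 149, 121.4 and 217 (log2 difference -5.10, SE 1.16, adjusted p = 0.0012). A single old circumbracteal sample thus kept a clear signal, and only of this copy. These 3 copies were called lower in all 3 nectaries and all 3 adjacent tissues, and no other member was. The fourth, LOC107893818, was lower in the bracteal and foliar nectaries and all 3 adjacent tissues. Beside the bracteal nectary the calls of LOC107893170, LOC107937001 and LOC107893818 were lost without pre-secretory replicate 3 (adjusted p 0.0816, 0.206 and 0.734). In the bracteal nectary the call of LOC107893170 ended without pre-secretory nectary replicate 3 (adjusted p = 0.108), that of LOC107937001 without pre-secretory nectary replicate 3 or post-secretory nectary replicate 3 (adjusted p 0.0983 to 0.365), and in the circumbracteal nectary that of LOC107937001 in a fit of the compared groups alone (adjusted p = 0.101).

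Summed over the 4 copies, the levels were 615 to 1155 in the pre-secretory, 36.3 in the single secretory and 0 to 10.6 in the post-secretory foliar nectary. They were 0.963 to 24.2 in the post-secretory bracteal nectary, against 243 to 1003 before, and 0 to 97.8 in the circumbracteal one, against 289 to 619. In adjacent tissues they were 0 to 8.36 in post-secretory leaves, against 587 to 868, 0 to 7.34 beside the post-secretory bracteal nectary, against 92.4 to 506, and 0 to 11.7 beside the circumbracteal one, against 97.2 to 435. The plot of KNOLLE-like genes shows old and young samples apart in all of these but for 1 circumbracteal nectary sample nearest to the young ones. The floral nectary was low throughout, with 23.2 to 36.3 before, 0 to 21.5 during and 18.8 to 94.6 after secretion. The 17 markers of dividing cells (cyclin-B, cyclin-dependent kinase B and NACK kinesins) also fell in extrafloral nectaries, where 8 of 17 fell in the foliar nectary, 4 in the bracteal and 5 in the circumbracteal nectary, with 1 rise there, and 11, 5 and 6 in the tissues beside them. They summed to 907 to 1093 in the post-secretory foliar nectary, against 2304 to 3041, to 1295 to 2086, against 1938 to 2229, in the bracteal and to 1521 to 3028, against 2232 to 3185, in the circumbracteal one, so that sums overlapped in the bracteal and circumbracteal nectaries. One cyclin gene of the list, LOC107949940, averaged 1437 over all samples and made up most of these sums. In the floral nectary they summed to 2701 to 3471 before and 2732 to 3474 during secretion while the KNOLLE-like genes were low. Phloem markers fell over the same steps (9 of 19 in the foliar, 3 in the bracteal and 8 in the circumbracteal nectary), to 45.7 to 136, against 836 to 1669, in the foliar, 47.2 to 203, against 697 to 1575, in the bracteal and 63.5 to 299.6, against 2514 to 3484, in the circumbracteal nectary. Their part in these changes was not tested.

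**Figure D4:**
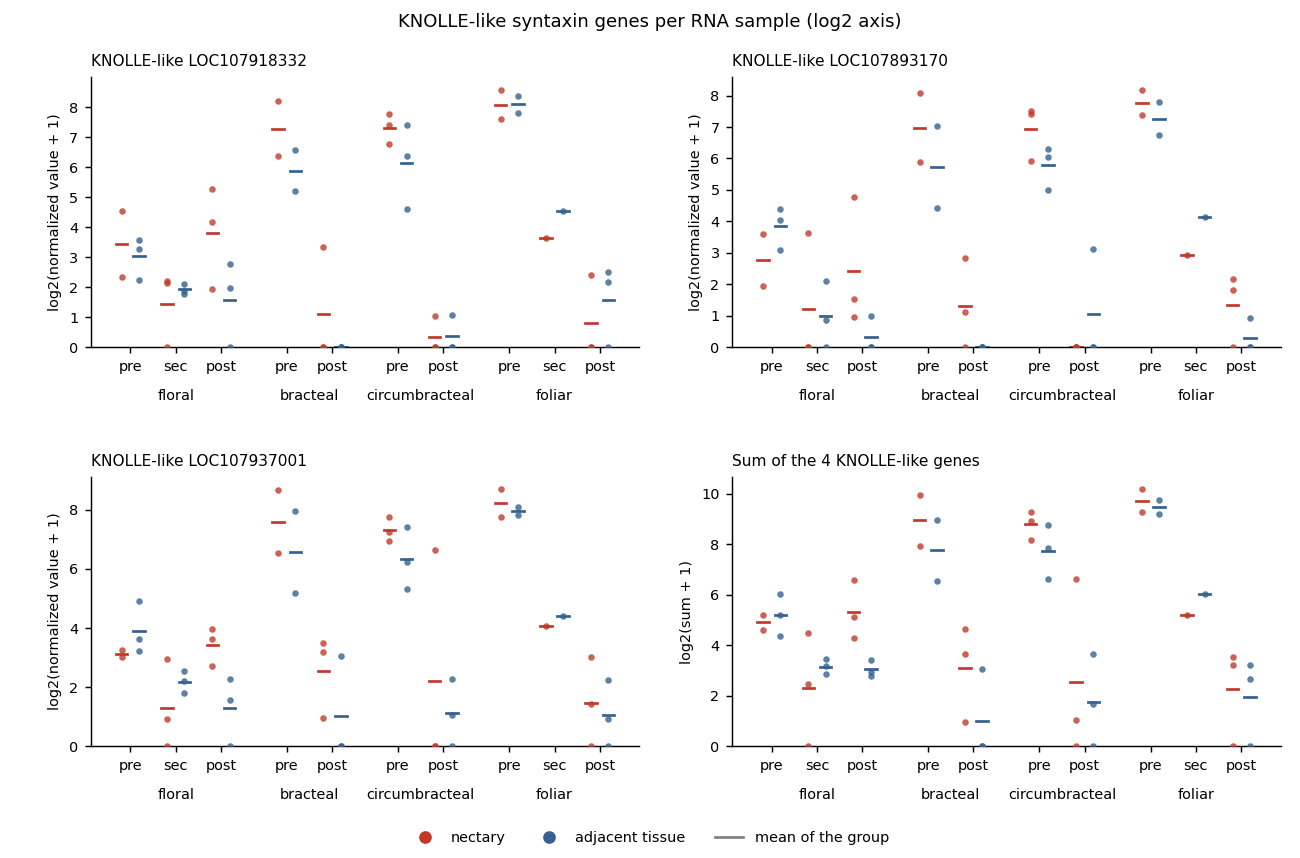
Values of 3 KNOLLE-like genes and the sum of all 4 (panels) in each group, as log2(normalized value + 1) on the vertical axis. Points are RNA samples, red for nectary and blue for adjacent tissue, and bars are means of the log values. Extrafloral pre-secretory groups stand high and post-secretory groups near 0 in both colours, while floral groups are low at all stages.

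Beyond the cell plate syntaxins, no member was called between stages in the bracteal nectary, but members were in the circumbracteal and foliar nectaries. A larger share of all genes was also called in the latter nectaries than in the bracteal one. The share of members called was below that of all genes in the bracteal and circumbracteal nectaries and just above it in the foliar one. All 4 calls of the bracteal nectary (of all genes 1.54% higher and 3.52% lower, 5.06% in all) were the KNOLLE-like genes, and the number called was 1 without replicate 3 of the pre-secretory nectary. The circumbracteal nectary had 14 members higher and 26 lower after secretion than before it (of all genes 12.5% higher and 10.8% lower, 23.4% in all), 12 and 26 on median-of-ratios scaling and 4 and 21 on total-of-table scaling. The foliar nectary had 6 higher and 21 lower (of all genes 4.12% higher and 9.3% lower, 13.4% in all), and 10 and 15 on total-of-table scaling. The photosynthetic markers also summed lower after secretion, to 12530 to 29980 in the post-secretory foliar nectary, against 33880 to 71540, and to 18540 to 70600 beside it, against 109800 to 186200, and their part in the foliar change was not tested. The number of members called in the foliar nectary was 8 without replicate 1 of the pre-secretory nectary and 17 without replicate 2 or 3 of the post-secretory nectary.

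Of the 42 coatomer genes 10 fell and 2 rose in the circumbracteal nectary, and 7 fell and 0 rose in the foliar nectary, where 9 syntaxins and 5 VAMPs also fell. The epsilon-1-like LOC107950986 had 247, 252 and 190.4 in the post-secretory circumbracteal nectary, against 527, 557 and 583 (log2 difference -1.28, SE 0.265, adjusted p = 0.000433), and 141, 149 and 136 in the foliar one, against 463 and 329 (log2 difference -1.45, SE 0.297, adjusted p = 0.000716). Old and young samples did not overlap in either, and this gene was named after its values were seen. The circumbracteal call was kept under every alternative tried, and the foliar one ended without pre-secretory nectary replicate 1 (adjusted p = 0.0659). The delta-like LOC107941949, a subunit of the inner coat layer, had 148, 156 and 134 in the post-secretory foliar nectary, against 487 and 309 (log2 difference -1.41, SE 0.334, adjusted p = 0.00349), and the other delta-like gene LOC107913594 fell by 1.64 there and by 1.14 in the circumbracteal nectary (log2). The zeta-1-like LOC107960250 had 1252, 869 and 752, against 4720 and 1894 (log2 difference -1.68, SE 0.543, adjusted p = 0.0341). All of these foliar falls were lost without pre-secretory nectary replicate 1, with an adjusted p of 0.185 for LOC107941949, 0.119 for LOC107913594 and 0.592 for LOC107960250. The last was also lost without post-secretory replicate 2 or 3 (0.0846 and 0.11). The circumbracteal fall of LOC107913594 ended without pre-secretory nectary replicate 3 or post-secretory nectary replicate 2 (adjusted p 0.0645 to 0.0718) and in a fit of the compared groups alone (adjusted p = 0.0811).

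As a sum, coatomer values were 6387 ± 941 in the post-secretory circumbracteal nectary, against 9790 ± 709 (SD, n = 3 each), and 4187 ± 470.0 in the foliar one, against 8569 ± 2821 (n = 3 and 2). Old and young samples lay apart in both. In the adjacent tissues the ratios of post-secretory to pre-secretory coatomer sums were 0.66 (circumbracteal) and 0.731 (foliar). The zeta-2-like LOC107900686 was listed at 0 in the 3 post-secretory circumbracteal nectary samples and had 103, 89.3 and 1.79 in the pre-secretory ones (adjusted p = 0.000397), and it had 4.23, 4.16 and 7.93 in the foliar nectary, against 120.4 and 67.9 (log2 difference -3.88, SE 1.12, adjusted p = 0.0169). It was also lower in all 3 extrafloral adjacent tissues. The adjacent call beside the bracteal nectary ended without pre-secretory replicate 3 (adjusted p = 0.0616) and in a fit of the compared groups alone (adjusted p = 0.0613), and that in the adjacent leaf without pre-secretory replicate 1 or 3 or post-secretory replicate 1 (adjusted p 0.0777 to 0.168). In the nectary, the circumbracteal call ended in a fit of the compared groups alone (adjusted p = 0.116), the foliar one without pre-secretory nectary replicate 1 or post-secretory nectary replicate 2 (adjusted p 0.0511 to 0.232).

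The exocyst went the other way in the foliar nectary, where 4 genes rose and 0 fell, 3 of them EXO70 genes (LOC107913419, LOC107916414 and LOC107935076) and the fourth the scarce SEC8-like XP_016722471.1. LOC107913419 (EXO70F1-matched) had 452, 290.4 and 263 in the post-secretory nectary, against 122 and 120.8 (log2 difference 1.42, SE 0.299, adjusted p = 0.00103), and 449.5, 355 and 382 in the adjacent leaf, against 144 and 165 (log2 difference 1.34, SE 0.299, adjusted p = 0.00129). Every old sample was above every young one in both tissues, and both calls were kept under every alternative tried. The EXO70D1-matched LOC107916414 had 103, 135 and 119.9 in the post-secretory nectary, against 33.5 and 57.3 (log2 difference 1.41, SE 0.421, adjusted p = 0.0201), a call that ended without pre-secretory nectary replicate 1 or post-secretory nectary replicate 2 or 3 (adjusted p 0.0514 to 0.394). Summed exocyst values were 3481 ± 148 in the post-secretory foliar nectary, against 2573 ± 45.7 (SD, n = 3 and 2), and the ratio was 1.21 in the bracteal and 1.04 in the circumbracteal nectary. In adjacent tissues the ratios were 1.25 (foliar), 1.3 (bracteal) and 1.25 (circumbracteal), with no overlap of old and young samples in any of them. On total-of-table scaling the bracteal adjacent ratio turned to 0.879 and the circumbracteal nectary ratio to 0.93. In the circumbracteal nectary 5 exocyst genes rose and 4 fell, of which the EXO70A1-like LOC107896286, matched to the EXO70A1 of polarised secretion, had 65.0, 127 and 44.7 after secretion, against 31.8, 37.3 and 19.7 (log2 difference 1.30, SE 0.401, adjusted p = 0.016). That call ended without pre-secretory nectary replicate 3 or post-secretory nectary replicate 2 (adjusted p 0.0911 to 0.141) and on total-of-table scaling and in a fit of the compared groups alone (adjusted p 0.081 to 0.299). The other EXO70F1-matched gene LOC107950186 had 47.7, 83.8 and 54.1, against 45.3, 42.7 and 5.38 (log2 difference 1.38, SE 0.449, adjusted p = 0.0223), and its call ended without pre-secretory nectary replicate 3 or post-secretory nectary replicate 2 (adjusted p 0.103 to 0.44) and on total-of-table scaling, in a fit of the compared groups alone and from run 1 alone (adjusted p 0.0536 to 0.413).

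Among the VAMPs, 6 fell and 0 rose in the circumbracteal nectary and 5 fell and 1 rose in the foliar one. The exception was the VAMP722-like LOC107954915, which had 747, 458 and 433 in the post-secretory foliar nectary, against 234 and 165 (log2 difference 1.43, SE 0.376, adjusted p = 0.00844). In the adjacent leaf it had 679.5, 664 and 683, against 215 and 83.5 (log2 difference 2.32, SE 0.376, adjusted p = 2.22e-05), a call kept under every alternative tried. Old samples were above young ones in both tissues, and the nectary call ended without pre-secretory nectary replicate 2 or post-secretory nectary replicate 1 (adjusted p 0.0586 to 0.0991). Its relative LOC107906000, VAMP721-like, fell, with 77.8, 59.1 and 94.3 in the foliar nectary, against 507 and 225 (log2 difference -2.14, SE 0.579, adjusted p = 0.0102), a call that ended without pre-secretory nectary replicate 1 (adjusted p = 0.32). The most abundant VAMP, LOC107961290, had 6030, 5796 and 5806 in the post-secretory and 3889, 3641 and 3460 in the pre-secretory circumbracteal nectary and was not called (adjusted p = 0.128).

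Of the 8 syntaxins placed in the endoplasmic reticulum group by their number, 4 fell in the foliar nectary and 4 in the adjacent leaf. Those that fell in the nectary were all syntaxin-71 genes. As given above, SYP71 of Arabidopsis is also a partner of KNOLLE at the cell plate, so the group name does not fix their compartment. LOC107905292, named after its values were seen, had 30.4, 36.6 and 23.8 in the post-secretory nectary, against 248 and 137 (log2 difference -2.59, SE 0.695, adjusted p = 0.00968), and 34.4, 35.3 and 12.1 beside it, against 269.6 and 131 (log2 difference -2.88, SE 0.695, adjusted p = 0.00295). The most abundant of this group, XP_016733780.1, had 155, 111 and 60.8 in the nectary, against 512 and 273 (log2 difference -1.87, SE 0.651, adjusted p = 0.0496). Neither gene overlapped between stages. The nectary call of LOC107905292 ended without pre-secretory nectary replicate 1 (adjusted p = 0.221), its adjacent call without pre-secretory adjacent tissue replicate 1 (adjusted p = 0.106), and the nectary call of XP_016733780.1 without pre-secretory nectary replicate 1 or 2 or post-secretory nectary replicate 2 or 3 (adjusted p 0.059 to 0.499) and on total-of-table scaling, with 0.5 added in place of 1, without summing rows by gene and from run 2 alone (adjusted p 0.0522 to 0.0659).

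In the circumbracteal nectary 7 syntaxins rose and 6 fell, and the 6 were all of the plasma membrane and cell plate group, while 3 of the trans-Golgi network rose. The syntaxin-132-like LOC107936317, matched to SYP131 of the plasma membrane, had 70.8, 3.1 and 47.9 after secretion, against 131, 152 and 80.7 (log2 difference -2.28, SE 0.528, adjusted p = 0.00149). Its post-secretory replicate 2 was far below the others. Its call ended in a fit of the compared groups alone (adjusted p = 0.229). The syntaxin-31-like LOC107943966 of the Golgi, named after its values were seen, had 136, 245 and 173, against 85.7, 49.3 and 91.5 (log2 difference 1.29, SE 0.303, adjusted p = 0.00174), and its call ended in a fit of the compared groups alone (adjusted p = 0.131). The vacuolar syntaxin-22-like LOC107942028, the most abundant syntaxin, was higher after secretion in both nectaries, at 1620, 1250 and 1170, against 888, 668 and 685, in the circumbracteal (log2 difference 0.85, SE 0.314, adjusted p = 0.0459) and at 2331, 1177 and 1166, against 711 and 525, in the foliar one (log2 difference 1.27, SE 0.351, adjusted p = 0.0121). The samples were apart in both. The circumbracteal call ended without pre-secretory nectary replicate 2 or 3 or post-secretory nectary replicate 1 or 2 or 3 (adjusted p 0.0557 to 0.152) and on total-of-table scaling, on median-of-ratios scaling, with 10 added in place of 1, in a fit of the compared groups alone and from run 1 alone (adjusted p 0.05 to 0.162), and the foliar one without pre-secretory nectary replicate 1 or 2 or post-secretory nectary replicate 1 (adjusted p 0.0536 to 0.114) and in a fit of the compared groups alone (adjusted p = 0.0608).

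Over the same stages more members were called beside the bracteal nectary than in it, fewer beside the circumbracteal one, and as many in the adjacent leaf as in the foliar nectary. Of the members 10 rose and 9 fell beside the bracteal nectary (of all genes 2.38% higher and 4.44% lower, 6.82% in all), 2 rose and 12 fell beside the circumbracteal (of all genes 4.11% higher and 5.57% lower, 9.68% in all) and 6 rose and 21 fell beside the foliar nectary (of all genes 5.53% higher and 10.1% lower, 15.6% in all). On total-of-table scaling these were 2 and 16, 0 and 18, and 8 and 17. The numbers called were 4 without replicate 3 of the pre-secretory adjacent tissue, 11 without replicate 3 of the post-secretory adjacent tissue and 12 without replicate 2 of the pre-secretory adjacent tissue or replicate 1 of the post-secretory adjacent tissue for the bracteal, 7 without replicate 3 of the pre-secretory adjacent tissue or replicate 3 of the post-secretory adjacent tissue for the circumbracteal and 10 without replicate 1 of the pre-secretory adjacent tissue, 15 without replicate 3 of the post-secretory adjacent tissue and 16 without replicate 1 of the post-secretory adjacent tissue for the foliar adjacent tissue. Beside the bracteal nectary, where the nectary itself had calls in the KNOLLE-like genes alone, the syntaxin-121-like XP_016702911.1 had 171, 210.2 and 97.2 after secretion, against 35.0 and 3.12 (log2 difference 3.65, SE 0.713, adjusted p = 0.000927), without overlap. Its call ended without pre-secretory adjacent tissue replicate 3 (adjusted p = 0.201) and in a fit of the compared groups alone (adjusted p = 0.108). Its levels in the nectary were 72.8, 109 and 31.8, against 21.4 and 20.0 (adjusted p = 0.249).

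The test of the difference between a nectary's change and that of its adjacent tissue called no member in any of the 5 steps. In limma 8 (floral onset), 7 (floral end), 7 (bracteal), 23 (circumbracteal) and 4 (foliar) of 193 members had an unadjusted p under 0.05. The share of all genes at that level was not computed, so these numbers cannot be set against other genes. Called, at an adjusted p under 0.05 and at least 1.5-fold, were of all genes 0.0772% higher and 0.0882% lower, 0.165% in all at the floral onset, of all genes 0.0154% higher and 0.00882% lower, 0.0243% in all at the floral end, of all genes 0.00221% higher and 0.00221% lower, 0.00441% in all in bracteal, of all genes 0.534% higher and 0.479% lower, 1.01% in all in circumbracteal and of all genes 0.0132% higher and 0.121% lower, 0.135% in all in foliar samples. Without 1 replicate the circumbracteal difference called 5 members (pre-secretory nectary replicate 1 or post-secretory nectary replicate 3), 2 (post-secretory nectary replicate 1) or 1 (pre-secretory nectary replicate 2 or pre-secretory adjacent replicate 1 or 2), and that after anthesis 1 (secretory nectary replicate 3 or post-secretory adjacent replicate 3). The median SE of these differences was 0.78 to 0.873 on the log2 scale, so that moderate differences were not detectable with these numbers of samples. Of the members called in a nectary step, 1 of 8 (12.5%) at the floral onset, 4 of 4 (100%) in the bracteal, 8 of 40 (20%) in the circumbracteal and 19 of 27 (70.4%) in the foliar nectary were called in the same direction beside it, which is 100, 21.1, 57.1 and 70.4% of those called in the adjacent tissue, and 0 were called in opposite directions. The matching overlap over all genes was not computed, so these shares do not show anything particular to the members. In the plot of stage changes the foliar points lie along the diagonal, and the KNOLLE-like genes sit at its low end in all 3 extrafloral panels.

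**Figure D5:**
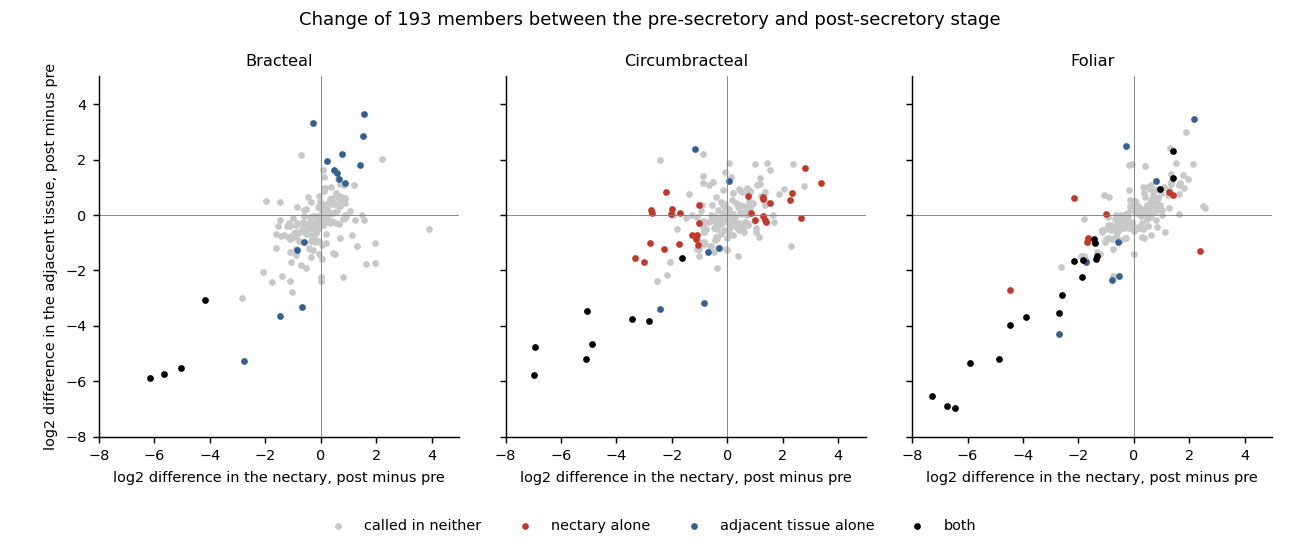
Change of each of the 193 members between the pre-secretory and post-secretory stage, as the log2 difference (post minus pre) in the nectary (horizontal axis) and in the adjacent tissue (vertical axis), for bracteal, circumbracteal and foliar samples (panels). Colour shows whether a member was called in neither (grey), the nectary alone (red), the adjacent tissue alone (blue) or both (black). Black points are 4 in the bracteal, 8 in the circumbracteal and 19 in the foliar panel, and the KNOLLE-like genes are the lowest of them.

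Among post-secretory nectaries, floral ones had lower exocyst sums than all extrafloral types on the main scaling, though not against circumbracteal ones on total-of-table scaling. Exocyst sums were 2739 ± 73.3 in the floral nectary, against 3066 ± 94.8 in the bracteal, 2974 ± 121.1 in the circumbracteal and 3481 ± 148 in the foliar one (SD, n = 3 each), with the floral samples below all others. The ratios were 0.894 (bracteal), 0.921 (circumbracteal) and 0.787 (foliar), and on total-of-table scaling 0.975, 1.48 and 0.551. Floral samples were taken 24 hours after anthesis, bracteal and circumbracteal ones 19 to 24 days after it and foliar ones from mature leaves. Nectary type and age thus cannot be told apart here. Before secretion, at stages that also differ in age, exocyst sums were 2756 ± 108 (floral), 2545 ± 337 (bracteal), 2870 ± 360 (circumbracteal) and 2573 ± 45.7 (foliar). Called members were 3 higher and 5 lower in the floral than the bracteal nectary (of all genes 4.73% higher and 3.97% lower, 8.7% in all), 18 and 7 against the circumbracteal (of all genes 9.83% higher and 4.53% lower, 14.4% in all) and 7 and 13 against the foliar nectary (of all genes 7.35% higher and 5.91% lower, 13.3% in all), and these comparisons share the floral samples. On total-of-table scaling they were 4 and 3, 32 and 0, and 5 and 23, and that scaling moved the median gene by 0.554 and -0.482 (log2) in the last 2. The numbers called were 4 without replicate 1 of the floral nectary or replicate 1 or 2 of the bracteal nectary and 5 without replicate 3 of the floral nectary or replicate 3 of the bracteal nectary for the bracteal, 11 without replicate 1 of the floral nectary, 14 without replicate 2 of the circumbracteal nectary and 15 without replicate 3 of the floral nectary for the circumbracteal and 9 without replicate 3 of the floral nectary and 13 without replicate 2 or 3 of the foliar nectary for the foliar comparison. Against the foliar nectary 8 exocyst genes were lower and 0 higher, 7 of them EXO70 genes.

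The EXO70B1-like LOC107935076 had 112, 81.5 and 119.8 in the post-secretory floral nectary, against 259, 208 and 234 in the bracteal (log2 difference -1.17, SE 0.276, adjusted p = 0.0038) and 298, 251 and 264 in the foliar nectary (log2 difference -1.38, SE 0.276, adjusted p = 0.000456). The EXO70E1-matched LOC107959764 had 15.9, 21.6 and 14.7, against 116, 97.4 and 82.0 in the foliar nectary (log2 difference -2.44, SE 0.649, adjusted p = 0.00855), and the VAMP722-like LOC107954915 had 82.5, 87.2 and 110.3, against 747, 458 and 433 (log2 difference -2.50, SE 0.336, adjusted p = 1.15e-06). In each of these every floral sample lay below the others, and the calls were kept under every alternative tried. The delta-like coatomer gene LOC107941949 was higher in the floral nectary, with 296, 361 and 314, against 148, 156 and 134 in the foliar one (log2 difference 1.14, SE 0.299, adjusted p = 0.00751), and its call ended on total-of-table scaling (adjusted p = 0.157). The zeta-2-like LOC107900686 had 101.2, 181 and 97.7 in the floral nectary, against 4.62, 7.07 and 0 in the bracteal (log2 difference 5.10, SE 1, adjusted p = 0.000527) and 4.23, 4.16 and 7.93 in the foliar one (log2 difference 4.30, SE 1, adjusted p = 0.00263), and was listed at 0 in the circumbracteal one (adjusted p = 6.27e-06). The floral samples were far above the others, and its 3 calls were kept under every alternative tried. Before secretion the gene was also present in the circumbracteal and foliar nectaries, as given above.

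Against the circumbracteal nectary, the abundant VAMP721-like LOC107961290 was lower in the floral nectary, with 1839, 2441 and 3154, against 6030, 5796 and 5806 (log2 difference -1.28, SE 0.325, adjusted p = 0.00607), and XP_016731465.1, also described as VAMP721, was higher, with 388, 275 and 193, against 33.2, 97.8 and 165 (log2 difference 1.74, SE 0.475, adjusted p = 0.0108). Neither overlapped between the nectaries. The call of LOC107961290 ended without floral nectary replicate 1 (adjusted p = 0.0531) and on total-of-table scaling (adjusted p = 0.123), and that of XP_016731465.1 ended without floral nectary replicate 1 or circumbracteal nectary replicate 1 (adjusted p 0.0716 to 0.145) and in a fit of the compared groups alone (adjusted p = 0.096). Of the plasma membrane and cell plate syntaxins, 5 of 18 were higher in the floral than the circumbracteal nectary and 0 lower.

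Of the 193 members 96 were called in none of the 22 comparisons of 2 groups, and these 96 include the most abundant gene of several roles. The share of all genes called in none was not computed. The number thus does not show whether the members were steadier than other genes. The late endosomal VAMP727-like LOC107904766 ranged only from 338 to 935 over the 51 samples, the EXO70A1-like LOC107915699 from 73.2 to 262.6, the trans-Golgi syntaxin-61-like LOC107924894 from 127 to 528, the Golgi syntaxin-32-like LOC107938015 from 125 to 369.6, the vacuolar VAMP711-like LOC107893451 from 219 to 883 and the gamma coatomer gene LOC107919935 from 126 to 341. The exocyst SEC15B-like LOC107912364 ranged more widely, from 81.9 to 1085, with its highest value in a pre-secretory circumbracteal nectary sample.

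Other genes of the vesicle route had few calls in the floral nectary. Their median log2 differences in the secretory floral nectary against its adjacent tissue were 0.10 for SNARE partners, 0.08 for COPII, 0.13 for clathrin and 0.11 for Rab genes, against -0.08 for the members and -0.12 for all genes. Of 33 SNARE partners and fusion factors (SNAP, NSF, NPSN and KEULE-type proteins) 1 was higher in the pre-secretory floral nectary and 0 in the secretory one, with 0 lower in either. Of 54 COPII genes 0 were called in the pre-secretory and secretory floral nectary and 1 was higher afterwards. Of 50 clathrin and adaptor genes 1 was lower in the secretory floral nectary, and of 61 Rab GTPases of the secretory route 2 were higher and 1 lower there. Of all genes 4.03% were higher and 4.74% lower in the pre-secretory floral nectary. These shares were 3.29% and 5.89% in the secretory and 1.95% and 2.23% in the post-secretory one. As sums, the COPII genes were apart at anthesis, at 6559 to 7476 in the nectary, against 5761 to 5842 beside it. The clathrin and adaptor genes were apart there too, at 7460 to 8646, against 5822 to 7417. Sums of the SNARE partners and of the Rab genes overlapped at anthesis. After secretion the COPII sums were again apart, at 6137 to 6672, against 5148 to 5723. Over the stages the Rab GTPases had 1 higher and 7 lower at the floral onset of secretion (of all genes 2.69% higher and 2.56% lower), 1 higher and 12 lower in the foliar nectary (of all genes 4.12% higher and 9.3% lower) and 1 and 11 in the adjacent leaf (of all genes 5.53% higher and 10.1% lower).

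Genes of the transporter route are given for contrast. Of 44 SWEET sugar transporters tested 6 were higher and 7 lower in the secretory floral nectary than beside it (of all genes 3.29% higher and 5.89% lower). In the pre-secretory nectary 7 were higher and 5 lower (of all genes 4.03% higher and 4.74% lower). The SWEET genes had a median log2 difference of -0.72 at anthesis. They summed to 9713 to 21880 in the secretory floral nectary, against 5028 to 7787 beside it, and to 4124 to 11020, against 3569 to 6217, in the pre-secretory one. Of 14 plasma membrane ATPases, the proton pumps that energise transport, 4 were higher and 0 lower in the pre-secretory floral nectary, where they summed to 5015 to 5687, against 1279 to 3238, and 1 was higher at anthesis, where they summed to 2769 to 3870, against 2939 to 3677. The sums were apart before and after secretion for the pumps and at anthesis for the SWEET genes. After secretion the pumps summed to 3633 to 4941 in the floral nectary, against 2591 to 2769 beside it. The difference between these lists and the vesicle genes was not tested.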

How the data were processed

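The members, their role groups and the gene lists were chosen with earlier results of these data known. The table used holds 51 RNA samples in 20 groups, each library sequenced in 2 runs, with an unstranded kit, and a second sequencing set was not analysed here. The authors deposited a table of length-scaled signal per NCBI protein, rounded to whole numbers, and how that table was aligned and scaled is not given in the sources used here. Those values are no raw counts. Among 132 rows examined, 34 lay on a step above 1, so no count model was used. Both runs of an RNA sample were summed, and rows of the same cotton gene were summed by RefSeq accession (39150 rows) or by name (2416), while 8097 rows stood alone. The protein descriptions gave the roles, and the deposited best Arabidopsis match only set the EXO70A genes apart from the other EXO70 genes.

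Values were divided by upper-quartile factors. limma 3.58.1 (R 4.3.3, trend) was fitted on log2(value + 1) over all 51 samples and 45337 genes with at least 10 in at least 2 samples, with Benjamini-Hochberg adjustment over all genes, and genes were called at an adjusted p under 0.05 and at least 1.5-fold. All p-values are from this test. The depth in reads is unknown, and the totals of the table set the precision. The procedure was tested on simulated data. Named were, per comparison, up to 3 called members with the largest rise and 3 with the largest fall (higher group averaging 50 or more, samples not overlapping), the most abundant member of each role, and the most abundant KNOLLE, syntaxin-121, syntaxin-132, VAMP721, VAMP722 and EXO70A1 gene. Other members named were chosen after their values were seen. Alternatives were scaling by the total of the table or by median of ratios, 0.5 or 10 added, no filter, rows not summed, single runs, the compared groups alone, a replicate block and each replicate left out.

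Replicate numbers paired nectary and adjacent samples, by the correlation of their deviations from the group means (every pair above 0.1), at 3 stages with 3 pairs each: secretory floral (0.298, 0.168 and 0.315), post-secretory bracteal (0.34, 0.224 and 0.18) and post-secretory foliar (0.227, 0.212 and 0.186). Pre-secretory bracteal samples (0.291 and 0.291) and pre-secretory foliar samples (0.396) also met this rule, with only 2 pairs and 1 pair. With 2 samples per group the 2 bracteal values are bound to be equal.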

Additional observations from a re-analysis of the deposited data

How the results depend on the processing

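Of 447 recomputed numbers of members called, 341 stayed within 1.5 times the reported one. Of 1701 recomputed differences of named genes, over 117 pairs of a gene and a comparison, 1291 kept their call, 410 kept the direction without a call and 0 reversed. Of 220 recomputed family ratios, 188 moved by less than the spread between replicates. The calls of the 4 KNOLLE-like genes in both foliar steps were kept under every alternative tried. The cause of the shifts below was not tested. Shares of all genes under these alternatives are not given, so the numbers below do not compare the members with other genes.

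With the compared groups alone in the fit, so fewer samples to estimate the spread, the members called against adjacent tissue were 2 in the pre-secretory floral, 1 in the post-secretory bracteal, 0 in the pre-secretory and 0 in the post-secretory circumbracteal and 7 in the post-secretory foliar nectary. In that fit the steps gave 0 (floral onset), 0 (floral end) and 4 (circumbracteal), those of adjacent tissue 2 (bracteal) and 6 (circumbracteal), and the floral nectary against bracteal, circumbracteal and foliar ones 4, 3 and 31. With 10 added, 5 members were called in the post-secretory floral, 3 in the pre-secretory circumbracteal, 1 in the pre-secretory and 7 in the post-secretory foliar nectary, and 1 in the difference of foliar steps. With 0.5 added, 1 was called in the difference of floral steps after anthesis. Run 1 alone gave 2 in the post-secretory bracteal and 2 in the pre-secretory circumbracteal nectary, and run 2 alone 0 and 3 there, 2 in floral adjacent tissue after anthesis and 5 and 14 in the floral nectary against bracteal and circumbracteal ones. On total-of-table scaling the numbers were 13 in the secretory floral, 2 in the post-secretory bracteal and 3 in the pre-secretory circumbracteal nectary, 6 at the floral end, 25 in the circumbracteal step and 1 in the difference of floral steps after anthesis.

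Under a replicate block 8, 14 and 7 members were called in the pre-secretory, secretory and post-secretory floral nectary, 15 in the post-secretory circumbracteal nectary, 16 in the foliar step, 11 and 15 in the bracteal and foliar adjacent steps and 1 in the difference of circumbracteal steps. Outside the stages named under processing the numbers did not meet the rule for pairing nectary and adjacent samples, and the block moved no other number of calls by more than 1.5 times. Among others, the block also ended the pre-secretory floral calls of XP_016730199.1 and LOC107900686 and the floral onset falls of LOC107922298 and LOC107906781. In the foliar nectary step it also ended the calls of LOC107916414, LOC107960250, LOC107900686 and XP_016733780.1.

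Leaving out each replicate in turn gave 1 to 4, 3 to 8 and 1 to 3 members in the pre-secretory, secretory and post-secretory floral nectary, 1 to 3 in the post-secretory bracteal, 3 to 14 and 4 to 15 in the pre-secretory and post-secretory circumbracteal and 0 to 2 in the post-secretory foliar nectary. The steps gave 1 to 7 (floral onset), 1 to 10 (floral end), 1 to 5 (bracteal) and 8 to 22 (foliar), those of adjacent tissue 0 to 5 (floral onset), 4 to 15 (bracteal), 7 to 19 (circumbracteal) and 10 to 22 (foliar), and the differences of steps 0 to 1 (floral end) and 0 to 5 (circumbracteal). Against bracteal, circumbracteal and foliar nectaries the floral one had 4 to 6, 11 to 32 and 9 to 18. The median SE of a member's difference was 0.552 to 0.676 on the log2 scale, which limits what groups of 2 or 3 can show.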
